A study of Mus musculus with 6 samples.

Results

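Fatty acids are a main fuel of muscle at rest and during long exercise. They are taken up across the fibre membrane, joined to coenzyme A, carried into mitochondria as carnitine esters and shortened by a repeating cycle of 4 reactions, beta-oxidation, whose electrons pass to the respiratory chain. The genes of this route are known to be controlled by the PPAR nuclear receptors with their coactivator PGC-1alpha, and ketone bodies made by the liver enter the same mitochondria through a short route of their own.

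The genes described here are 32 named genes of fatty acid uptake, the carnitine shuttle, mitochondrial and peroxisomal beta-oxidation and ketone use. They were found by symbol in the count tables, which hold 23282 rows. All 32 were present, and 31 passed the filter on low counts. The gene left out was Ehhadh. The samples were gastrocnemius muscles of wild-type C57/BL6J male mice, 20 months old, in 2 groups of 3 mice. One group was given inotodiol, a triterpenoid of the chaga mushroom, by mouth at 0.35 mg/kg every day for 10 weeks, and the other was given vehicle, a mix of 40% PEG, 5% Tween 80 and 0.9% saline. The title of the study places it in age-related muscle wasting and mitochondrial function, and the comparison asks which transcripts differ between treated and control muscle. There was no young group, so the data hold no comparison with age.

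Library totals ranged from 8961893 to 9953764 counts. Levels are given as CPM, counts scaled to a common library size with TMM factors, which evens out differences in composition between libraries. Fold changes are log2 ratios of inotodiol over vehicle. All 12 genes of the skeletal fibre list were detected, and together they took 213027 to 227898 CPM in vehicle and 212541 to 243950 CPM in inotodiol muscle. Rn45s, the ribosomal RNA precursor, made up 10.2% and 9.56% of the total in inotodiol 1 and 2 and 3.97% to 6.82% in the other libraries. Transcripts of hepatocytes also varied: the 15 markers, all detected, summed to 39.4 to 97.4 CPM in vehicle and 112 to 721 CPM in inotodiol libraries. None of the 14 tested passed the adjusted threshold (smallest adjusted p 0.58 in edgeR). The largest part of the sum was Alb in inotodiol 1 (252 CPM) and Cyp2e1 in vehicle 1 (24.4 CPM). Cyp2e1 was highest in vehicle 1, with a log2 fold change of 0.060. The part of Rn45s and of hepatocyte transcripts in the results below was not tested.

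Of the 32 genes, 2 are direct neighbours. Hadha and Hadhb, which encode the alpha and beta subunits of the mitochondrial trifunctional protein, lie head to head on chromosome 5, with their annotated starts at 30155162 (minus strand) and 30155248 (plus strand). The stretch between the starts is shown because it lies upstream of both members of this pair, whose levels are set side by side below. It is taken from RefSeq's Hadhb promoter on GRCm38, reads in the direction of Hadhb and has its 9 CG pairs in capitals; 69.4% of its 85 bases are G or C.
Hadha-Hadhb, chr5:30155163-30155247, plus strand: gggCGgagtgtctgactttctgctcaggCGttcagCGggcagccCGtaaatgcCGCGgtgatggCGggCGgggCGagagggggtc

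No gene of the route passed the test between inotodiol and vehicle. The median log2 fold change of the 31 genes tested was 0.054, a ratio of 1.04, with 18 genes above 0 and 13 below; over all 11700 genes tested the median was -0.00073. With scaling to library totals in place of TMM both medians fell, to -0.060 and -0.12, and 10 of the 31 genes were above 0. Single genes ranged from -0.37 (Etfdh) to 0.57 (Bdh1). In edgeR's quasi-likelihood test the adjusted p of the 31 genes was 0.96 to 0.998, and under all alternatives tried the smallest was 0.30 (Bdh1, with no filter on low counts). Of the 31, 1 (Bdh1, higher with inotodiol) reached an unadjusted p under 0.05, and 4.87% of all genes tested were at that level. The groups did not overlap for 2 of the 31, both higher with inotodiol, where 10.4% of all genes tested did not overlap, 5.15% higher and 5.26% lower. Over all genes edgeR called 0 (0% of those tested), with 570 at an unadjusted p under 0.05, of which 312 were higher and 258 lower. That balance turned with the scaling, to 138 higher and 588 lower with library totals and to 177 and 441 with library totals without Rn45s. DESeq2 called 1 gene, which is not of this route.

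The precision of these genes was better than that of a typical gene. Their median standard error was 0.15 on the log2 scale, where that of all genes tested was 0.28. The 2 sets were not matched for level, and the scarcest gene of the route that was tested, Cpt1a, had the largest standard error (0.34). The 95% interval, not adjusted for the number of genes, lay within a 2-fold change in either direction for 28 of the 31 and within a 1.5-fold change for 25. The genes whose interval reached beyond 2-fold were Cpt1a, Ucp3 and Bdh1. In whole muscle, fewer fibres or cells of a type and less RNA per cell cannot be told apart.

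**Figure D1:**
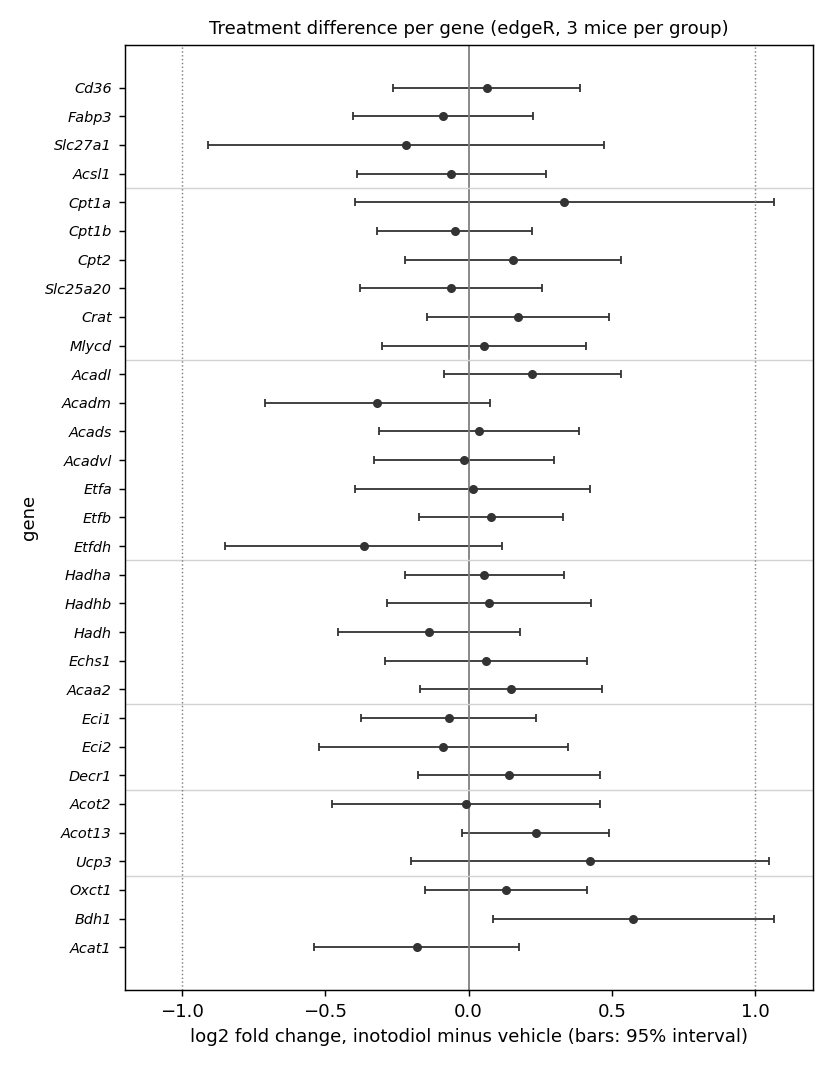
Log2 fold change of each of the 31 genes tested, inotodiol minus vehicle, with the 95% interval from edgeR's fit as bars; the grey line is no difference, dotted lines are 2-fold, and pale lines part the steps of the route. The interval covers 0 for 30 of the 31 genes, and that of Bdh1 lies above 0.

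The uptake and activation genes showed 1 of 4 above 0, with a median log2 fold change of -0.074. Cd36, the fatty acid translocase of the cell surface, had 136, 119 and 109 CPM in vehicle libraries 1 to 3 and 124, 110 and 146 CPM in inotodiol libraries 1 to 3. The groups overlapped, with a log2 fold change of 0.063 ± 0.15 (SE; 95% interval -0.26 to 0.39, adjusted p 0.99 in edgeR). It turned below 0 with scaling to library totals (-0.048). Fat cells and capillaries also carry Cd36. The 10 adipocyte markers, all detected, summed to 2069 to 2340 CPM in vehicle and 1873 to 2336 CPM in inotodiol muscle. Most of each sum came from Car3 (912 to 1217 CPM) and Lpl (618 to 815 CPM), while Adipoq had 30.9 to 81.2 CPM. The 10 endothelial markers, all detected, summed to 345 to 355 CPM in vehicle and 292 to 366 CPM in inotodiol muscle. Their largest part was Fabp4 (133 to 214 CPM), which is on both lists. The sums thus say little about the other markers, and the part of either cell type in Cd36 was not tested.

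Fabp3, which carries fatty acids through the cytosol of muscle, had 312 to 371 CPM in vehicle and 273 to 389 CPM in inotodiol muscle, or -0.088 in log2 fold change. Acsl1, which joins long-chain fatty acids to coenzyme A, had 155 to 203 and 145 to 197 CPM. Slc27a1, the transport protein FATP1, differed more between mice: it had 10.2 and 8.76 CPM in inotodiol 1 and 2 and 21.8 CPM in inotodiol 3, with 13.3 to 18.0 CPM in vehicle. Inotodiol 1 and 2 thus lay below every vehicle library and inotodiol 3 above them. Its log2 fold change was -0.22 with all libraries. Without inotodiol 3 it was -0.74 (unadjusted p 0.021, adjusted p 0.89 in edgeR). Leaving out the treated library that lay above the controls lowers the value by construction.

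The carnitine shuttle had 4 of 6 genes above 0 and a median log2 fold change of 0.10. Cpt1b, the muscle form of carnitine palmitoyltransferase 1 that controls entry into mitochondria, had 183, 197 and 178 CPM in vehicle libraries 1 to 3 and 169, 182 and 189 CPM in inotodiol libraries 1 to 3. These values interleave, and the log2 fold change was -0.049 ± 0.13 (SE; 95% interval -0.32 to 0.22, adjusted p 0.99 in edgeR). Cpt1b lies on chromosome 15, 89416405 to 89425863, minus strand, where the annotated model Gm44502 on the same strand covers 81.4% of its exon bases; how such reads were counted is not given in the sources used here.

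Cpt1a, the liver form of the same enzyme (chromosome 19, 3322334 to 3385733, plus strand), was scarce in this muscle. It had 45, 50 and 57 counts in vehicle and 55, 52 and 79 in inotodiol libraries, or 4.74, 5.40 and 5.60 CPM against 5.97, 5.77 and 8.10 CPM. All 3 inotodiol values lay above all 3 vehicle values, the nearest pair being inotodiol 2 and vehicle 3. The log2 fold change was 0.33 ± 0.34 (SE; 95% interval -0.40 to 1.06), with an unadjusted p of 0.34 and an adjusted p of 0.97 in edgeR; without inotodiol 3 it was 0.16. Among the inotodiol libraries Cpt1a was highest in inotodiol 3, where the hepatocyte markers summed to 112 CPM, the least of that group. Over all libraries both Cpt1a and the marker sum were lowest in vehicle 1 (4.74 and 39.4 CPM). The part of hepatocyte transcripts in Cpt1a was not tested. Per kilobase of the longest annotated transcript, the mean level was 1.22 CPM for Cpt1a and 64.3 CPM for Cpt1b in vehicle, and 1.53 and 62.1 CPM with inotodiol. If counts come from transcript ends alone, the plain CPM is the fitter scale; the order of the pair is the same on both.

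The other shuttle genes overlapped between groups. Cpt2, which re-forms the coenzyme A ester inside the mitochondrion, had a log2 fold change of 0.15. Slc25a20, the carrier that exchanges acylcarnitine for carnitine, had -0.060, with 58.1 to 65.9 CPM in vehicle and 58.0 to 64.1 CPM in inotodiol muscle. Crat, which makes acetylcarnitine, had 103 to 124 and 113 to 146 CPM, which is 0.17 as a log2 fold change. Mlycd, which breaks down malonyl-CoA, the inhibitor of carnitine palmitoyltransferase 1, stood at 0.054.

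**Figure D2:**
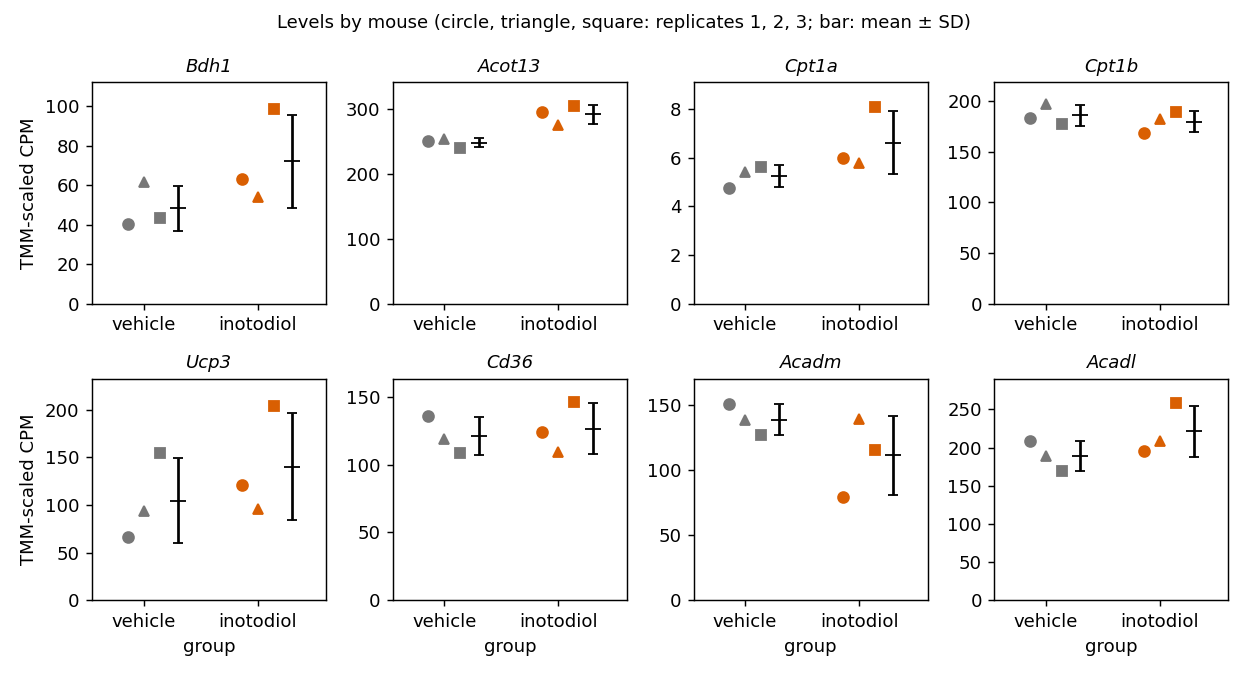
Levels in TMM-scaled CPM of 8 genes in each of the 6 mice, with vehicle in grey and inotodiol in orange, symbols for replicates 1 to 3, and the mean ± SD of each group as a bar; axes start at 0. Acot13 and Cpt1a have no overlap between groups, Bdh1 and Ucp3 have their highest value in inotodiol 3, and Acadm has its lowest in inotodiol 1.

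The acyl-CoA dehydrogenases carry out the first step of each cycle and differ by the chain length they take. Acadvl, for very long chains, had 138, 158 and 130 CPM in vehicle libraries 1 to 3 and 127, 131 and 164 CPM in inotodiol libraries 1 to 3. The groups overlapped, with a log2 fold change of -0.014 ± 0.15 (SE; 95% interval -0.33 to 0.30, adjusted p 0.998 in edgeR). Its exons share 42.9% of their bases with Dvl2 on the opposite strand, and Dvl2 itself had 41 to 88 counts per library where Acadvl had 1175 to 1597, and reads of the pair cannot be told apart there if strand was not used.

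Acadl, for long chains, had 209, 189 and 170 CPM in vehicle and 196, 209 and 259 CPM in inotodiol muscle (log2 fold change 0.22). Inotodiol 3 stood above the other 5 libraries, and without it the value was 0.093. Acadm, for medium chains, went the other way at -0.32: it had 151, 138 and 127 CPM in vehicle and 79.4, 139 and 116 CPM in inotodiol muscle. The low value was that of inotodiol 1, and without that library the log2 fold change was -0.12. Without inotodiol 2 it was -0.51 (unadjusted p 0.019, adjusted p 0.79 in edgeR), a fall that leaving out the highest treated library brings with it. Acads, for short chains, stood at 0.037 with 55.9 to 71.5 CPM in vehicle and 56.1 to 68.8 CPM with inotodiol.

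Electrons from these enzymes pass through the electron transfer flavoprotein, encoded by Etfa and Etfb, to its dehydrogenase Etfdh in the inner membrane. Etfb had 339 to 376 CPM in vehicle and 372 to 395 CPM with inotodiol, or 0.080 in log2 fold change. Etfa had 32.5 to 41.8 and 29.4 to 42.9 CPM, a value of 0.014 with a turn below 0 when scaled to library totals (-0.10). The model Gm45233 on the same strand covers 53.0% of the exon bases of Etfb. Etfdh had 34.1, 37.0 and 45.7 CPM in vehicle and 20.2, 35.6 and 34.8 CPM with inotodiol, which is -0.37 ± 0.22 as a log2 fold change (SE; 95% interval -0.85 to 0.12, adjusted p 0.96 in edgeR). As with Acadm, inotodiol 1 was the low library, and without it the value was -0.14. Without inotodiol 2 the value was -0.50.

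The later steps of the cycle had 4 of 5 tested genes above 0 and a median log2 fold change of 0.062. Hadha had 238, 253 and 205 CPM in vehicle libraries 1 to 3 and 242, 227 and 253 CPM in inotodiol libraries 1 to 3. The values interleave, at 0.056 ± 0.13 (SE; 95% interval -0.22 to 0.33, adjusted p 0.99 in edgeR). Its neighbour Hadhb, which shares the upstream stretch shown above, had 41.4, 50.5 and 40.7 CPM in vehicle and 49.2, 48.5 and 41.7 CPM with inotodiol (log2 fold change 0.072). Both turned below 0 with scaling to library totals (-0.057 and -0.047). In vehicle both were highest in library 2 and lowest in library 3, whereas in inotodiol 3 Hadha was at its highest for the group and Hadhb at its lowest.

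Hadh, the short-chain hydroxyacyl-CoA dehydrogenase, had 155 to 196 CPM in vehicle and 141 to 180 CPM with inotodiol (-0.14). Echs1, the short-chain enoyl-CoA hydratase, stood at 0.062 and Acaa2, the mitochondrial thiolase, at 0.15. Acaa2 had 124 to 134 CPM in vehicle and 139, 123 and 172 CPM with inotodiol, and without inotodiol 3 its value was 0.0031. Ehhadh, the peroxisomal bifunctional enzyme, had 6, 2 and 1 counts in vehicle and 2, 2 and 0 in inotodiol libraries. The 0 in inotodiol 3 allows up to 0.314 CPM unscaled, a limit for counting error alone, so no difference was detectable at this depth.

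The auxiliary enzymes for unsaturated fatty acids showed 1 of 3 genes above 0. Decr1, the dienoyl-CoA reductase, had 61.2 to 70.7 CPM in vehicle and 69.0 to 80.5 CPM with inotodiol, or 0.14 in log2 fold change. Eci1 and Eci2, enoyl-CoA isomerases, stood at -0.070 and -0.088, and Eci2 had a single low vehicle library, 306 counts in vehicle 2 against 498 and 551 in the other two.

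Acot13, a thioesterase that frees fatty acids from coenzyme A at the mitochondrion (chromosome 13, 24817948 to 24831540, minus strand), was the other gene whose groups did not overlap. It had 250, 254 and 240 CPM in vehicle libraries 1 to 3 and 296, 275 and 304 CPM in inotodiol libraries 1 to 3. All 3 treated mice lay above all 3 controls, and the gap between the nearest pair, 275 against 254 CPM, was wider than the standard deviation of either group (7.38 and 15.1 CPM). The log2 fold change was 0.23 ± 0.12 (SE), with a 95% interval of -0.021 to 0.49, an unadjusted p of 0.069 and an adjusted p of 0.96 in edgeR. With single libraries left out it ranged from 0.20 to 0.27, and with scaling to library totals it was 0.12.

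Acot2, the mitochondrial thioesterase for long chains, had 115, 99.9 and 127 CPM in vehicle and 87.3, 88.2 and 164 CPM with inotodiol. As with Slc27a1, inotodiol 1 and 2 lay below all vehicle libraries and inotodiol 3 above them. The log2 fold change of -0.010 is thus the sum of opposite deviations. Without inotodiol 3 it was -0.38 (unadjusted p 0.034, adjusted p 0.99 in edgeR), a fall that leaving out the high treated library brings with it. Acot2 has a close relative, Acot1, with 21 to 59 counts per library against 795 to 1596 for Acot2, and reads that match both could be split between them.

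Ucp3, the uncoupling protein of the muscle mitochondrion (chromosome 7, 100472990 to 100486432, plus strand), had 66.4, 93.2 and 154 CPM in vehicle libraries 1 to 3 and 121, 96.1 and 204 CPM in inotodiol libraries 1 to 3. Its level differed 3.07-fold between the lowest and the highest mouse, and the groups overlapped. The log2 fold change was 0.42 ± 0.29 (SE; 95% interval -0.20 to 1.05), with an unadjusted p of 0.17 and an adjusted p of 0.96 in edgeR. It was 0.053 without inotodiol 3. Without vehicle 3, the high control, it was 0.82 (unadjusted p 0.012, adjusted p 0.9997 in edgeR). Leaving out the highest control raises the value by construction.

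Ketone body use had 2 of 3 genes above 0. Bdh1, the hydroxybutyrate dehydrogenase that takes the first step of ketone use (chromosome 16, 31422280 to 31458901, plus strand), had 40.2, 61.4 and 43.6 CPM in vehicle libraries 1 to 3 and 63.3, 54.0 and 98.9 CPM in inotodiol libraries 1 to 3. The group means were 48.4 ± 11.4 and 72.1 ± 23.7 CPM (SD, n = 3). Inotodiol 2 lay below vehicle 2, so the groups overlapped. Its log2 fold change of 0.57 ± 0.23 (SE; 95% interval 0.084 to 1.06) had an unadjusted p of 0.025 and an adjusted p of 0.96 in edgeR's quasi-likelihood test. Without inotodiol 3 it was 0.28, without vehicle 1 it was 0.46, without vehicle 3 it was 0.50, and with scaling to library totals it was 0.48. In each of these 4 cases the unadjusted p was above 0.05. The value rose to 0.79 without vehicle 2, to 0.74 without inotodiol 2 and to 0.66 without inotodiol 1. In edgeR the unadjusted p of these was 0.0082, 0.0084 and 0.021, and the adjusted p 0.80, 0.64 and 0.99. Leaving out the highest control (vehicle 2) or the lowest treated library (inotodiol 2) raises the value by construction.

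Oxct1, the transferase that activates acetoacetate and sets the capacity of muscle to burn ketones, had 508, 444 and 397 CPM in vehicle and 471, 459 and 546 CPM with inotodiol, which is 0.13 as a log2 fold change. Acat1, the acetoacetyl-CoA thiolase that completes the route, stood at -0.18 with 151 to 168 CPM in vehicle and 109, 177 and 133 CPM with inotodiol. Its low library was again inotodiol 1, without which the value was -0.031. Without inotodiol 2, the highest treated library, it was -0.38 (unadjusted p 0.032, adjusted p 0.84 in edgeR), again a fall by construction. The 3 successive enzymes of ketone use thus showed values of 0.57, 0.13 and -0.18, none of which passed the test.

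Inotodiol 3 stood highest of the libraries over the route as a whole. It held the highest value of 18 of the 31 genes (58.1%), where it held the highest value of 19.7% of all genes tested. Inotodiol 1 held the lowest value of 10 (32.3%, against 17.0% of all genes) and the highest of 0, and vehicle 3 the lowest of 9 (29.0%, against 15.3%). On the log2 scale the mean level of the 31 genes, relative to their mean over all 6 libraries, was 0.21 in inotodiol 3, -0.11 in inotodiol 1 and -0.052 in inotodiol 2. In vehicle libraries 1 to 3 it was 0.027, -0.020 and -0.056. The treated mice thus spanned the whole range, with all controls between them, and their standard deviation was 0.17 against 0.041 in vehicle. Without inotodiol 3 the median log2 fold change of the 31 genes was -0.011. By step, the mean level was highest in inotodiol 3 throughout, from 0.085 in the later steps to 0.52 in thioesterases and uncoupling. The lead was narrow for the acyl-CoA dehydrogenases and electron transfer (0.10, with 0.087 in vehicle 1). It was also narrow for the later steps (0.085, with 0.057 in vehicle 1).

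**Figure D3:**
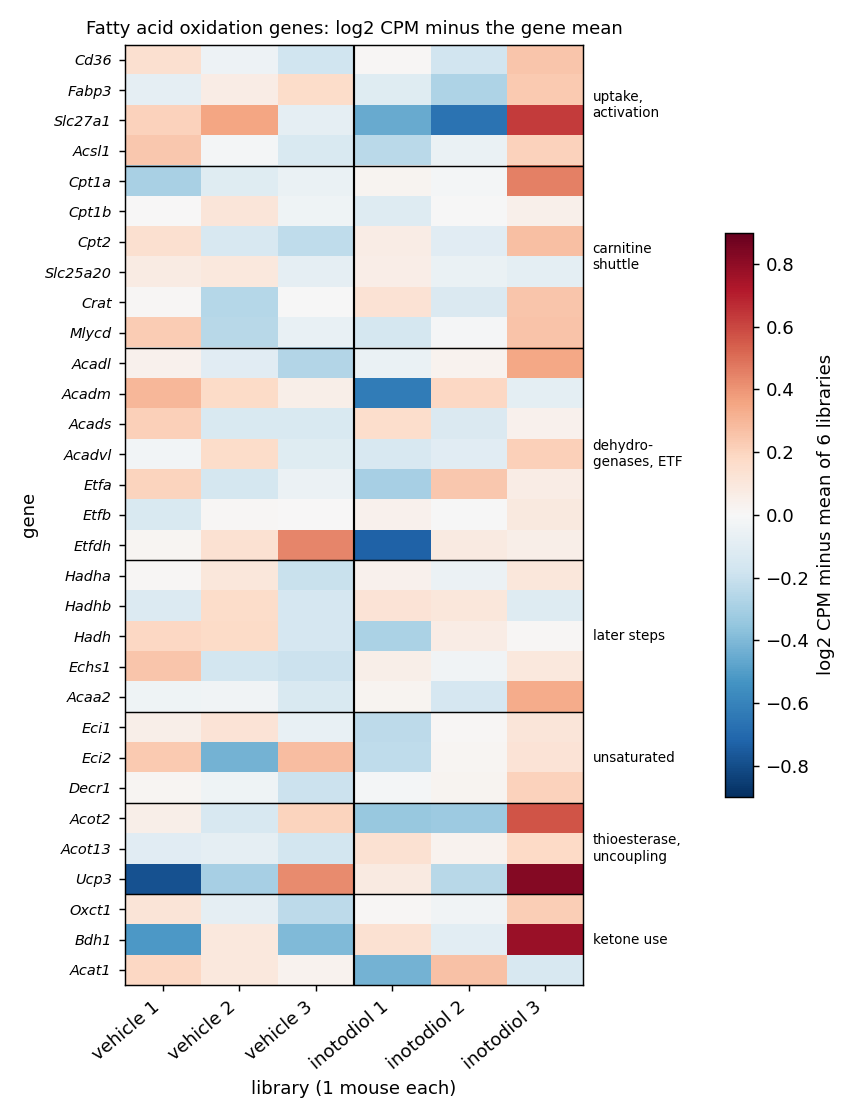
Log2 CPM of the 31 genes tested (rows, by step of the route) in each of the 6 libraries (columns, 1 mouse each), minus the mean of the gene over all libraries; red is above and blue below it. The inotodiol 3 column is above the mean for 27 of the 31 genes, led by Bdh1, Ucp3, Slc27a1 and Acot2, while Acadm, Etfdh and Acat1 are blue in inotodiol 1.

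In shares of the raw counts inotodiol 3 was again highest and inotodiol 1 lowest, while inotodiol 2 lay below all vehicle libraries. The 32 genes took 0.491% of all counts in inotodiol 3, 0.369% and 0.377% in inotodiol 1 and 2 and 0.416% to 0.451% in vehicle. With Rn45s left out of the total, the shares were 0.513% in inotodiol 3, 0.411% and 0.417% in inotodiol 1 and 2 and 0.443% to 0.470% in vehicle. The part of Rn45s and of hepatocyte transcripts in the low values of inotodiol 1 and 2 was not tested.

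Other mitochondrial and fibre genes did not all share this order. A list of 12 nuclear genes of respiratory complex I stood at 0.14 in inotodiol 3, 0.087 in inotodiol 1 and 0.016 in inotodiol 2, with -0.13 to -0.028 in vehicle, so that inotodiol 1 was above the mean for complex I and below it for fatty acid oxidation. The 10 genes of slow and oxidative fibres, which burn more fat than fast fibres, stood at 0.020, -0.065 and 0.12 in inotodiol 1 to 3 and at 0.025, 0.18 and -0.28 in vehicle 1 to 3. Both lists were high in inotodiol 3, and the slow fibre list was higher still in vehicle 2. The 10 adipocyte markers, on the same scale, were lowest in inotodiol 1 (-0.30) and highest in inotodiol 3 (0.26), as the fatty acid oxidation genes were, with 0.014 in inotodiol 2 and 0.081, -0.27 and 0.21 in vehicle 1 to 3. Their part in the levels by library was not tested.

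**Figure D4:**
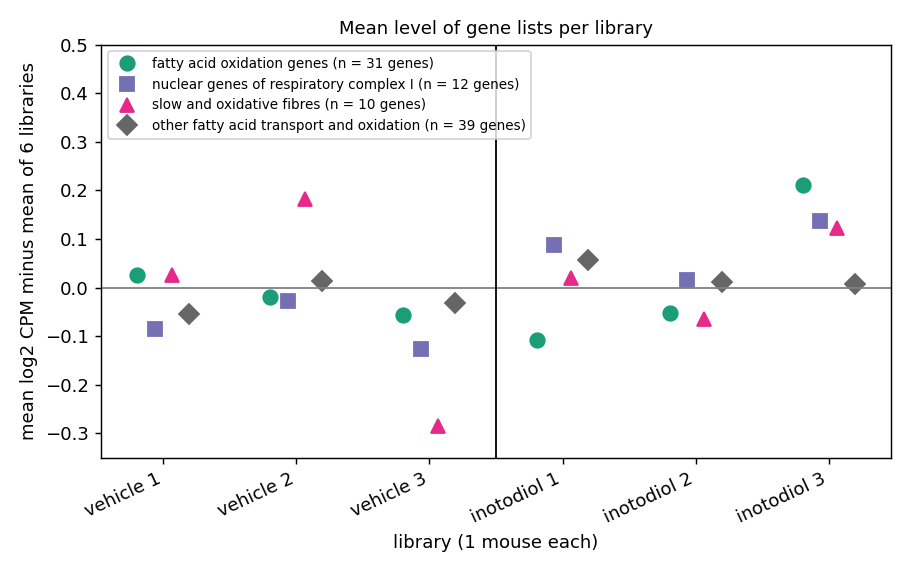
Mean log2 CPM of 4 gene lists in each library (1 mouse each), relative to the mean of the list over the 6 libraries; circles are the 31 fatty acid oxidation genes. The circles lie between -0.11 and 0.03 in 5 libraries and at 0.21 in inotodiol 3, whereas the other 39 fatty acid genes stay between -0.054 and 0.056.

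Further genes of fatty acid transport and oxidation were read from a second list of 41 symbols, of which 39 were tested. None passed the adjusted threshold, 14 were above 0 and 25 below, and the median log2 fold change was -0.049. Those with an unadjusted p under 0.05 were 3 higher (2.67% of all genes were) and 2 lower (2.21% of all genes were). Those whose groups did not overlap were 6 higher (5.15% of all genes were) and 3 lower (5.26% of all genes were). With scaling to library totals 10 were above 0 and 29 below, and those with an unadjusted p under 0.05 were 1 higher and 3 lower. Bdh2, a cytosolic dehydrogenase, had 3, 3 and 6 counts in vehicle and 19, 14 and 11 in inotodiol libraries, with no overlap and a log2 fold change of 1.91 ± 0.82 (SE, adjusted p 0.96 in edgeR). It is low beside the genes above. Among the inotodiol libraries Bdh2 was highest in library 1 and lowest in library 3, as the hepatocyte markers were. In vehicle the order differed, with Bdh2 highest in library 3 and those markers highest in library 2 (97.4 CPM, with 64.1 CPM in library 3). Their part in this value was not tested.

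Pex11a, which acts in the division of peroxisomes, had 11.5, 16.7 and 17.5 CPM in vehicle and 24.0, 21.0 and 20.6 CPM with inotodiol (log2 fold change 0.52) with no overlap. Acsl4, an acyl-CoA synthetase with a preference for arachidonate, was lower without overlap, with 45.4, 38.9 and 47.4 CPM in vehicle and 26.0, 36.7 and 35.6 CPM with inotodiol (-0.42). Both had an adjusted p of 0.96 in edgeR.

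Of the 23 regulators of fatty acid oxidation and their direct targets listed, all were tested, none passed, 9 were above 0 and 14 below (5 and 18 with scaling to library totals). The groups did not overlap for 1 higher (5.15% of all genes were) and 1 lower (5.26% of all genes were). Ppara, the receptor that drives oxidation genes, had 36.1, 69.1 and 46.5 CPM in vehicle and 57.0, 71.7 and 61.2 CPM with inotodiol, or 0.32 in log2 fold change. Ppard, a related receptor, stood at -0.11, with its highest level in inotodiol 3 (22.6 CPM) and its lowest in inotodiol 2 (15.6 CPM). Rxrg, a partner of both receptors, stood at 0.32 and Sirt3, a mitochondrial deacetylase, at 0.75, both with an adjusted p of 0.96 in edgeR. Ppargc1a, which encodes PGC-1alpha, had 902 to 2273 counts in vehicle and 1048 to 1450 counts with inotodiol, and its sign changed with the library left out (-0.34 to 0.46).

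Pdk4, which spares glucose by blocking pyruvate dehydrogenase and is a classic PPAR target, was the gene of both further lists with the smallest p. It had 133, 148 and 226 CPM in vehicle libraries 1 to 3 and 67.7, 111 and 81.1 CPM in inotodiol libraries 1 to 3. The groups did not overlap, and the log2 fold change was -0.96 ± 0.21 (SE; adjusted p 0.58 in edgeR). It passed the threshold in 1 of the alternatives, with no filter on low counts, and its value ranged from -1.18 to -0.69 with single libraries left out.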

How the data were processed

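RNA of 6 gastrocnemius muscles was sequenced from Lexogen Quant-Seq libraries made of 500 ng total RNA, per the labels' protocols. The authors deposited whole-number read counts per gene symbol; Bowtie2, bedtools and mm10 are named in the submitters' processing notes, while annotation, strand and treatment of multiply matching reads are not stated there or in the labels. Whether counts rise with transcript length was not settled.

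Genes were kept with edgeR's filterByExpr (minimum count 10, total 15), which left 11700 of 23282 rows. Counts were TMM-scaled. The test was edgeR's quasi-likelihood fit (edgeR 4.0.16 under R 4.3.3), two-sided, on group alone, with Benjamini-Hochberg adjustment over all genes at 0.05. Mean levels used log2 CPM with a prior count of 2. P-values set the difference against the spread among 3 mice per group, with the variance of each gene moderated by that of the other genes tested. The scripts were tested on simulated data. The members and gene lists were chosen with earlier results of these data known. All 32 members are described, with full statistics for those with separated groups or an unadjusted p under 0.05 and for 6 set by name (Cd36, Cpt1a, Cpt1b, Hadha, Acadvl, Ucp3); of the 2 further lists, the 4 genes with the smallest p and Ppara, Ppard, Ppargc1a and Pdk4. Acadl, Acadm, Etfdh, Slc27a1, Acot2, Oxct1 and others given by library, and the patterns by library, were singled out after their values were seen. Positions are from GENCODE M21 (GRCm38, the same assembly as mm10). The alternatives were other scalings, filters and tools (DESeq2 1.42.0, limma-voom from limma 3.58.1), the replicate number as a block and each library left out; library totals without Rn45s were chosen after seeing the data. A further gene is not reported here.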

Additional observations from a re-analysis of the deposited data

How the results depend on the processing

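No member was called under any of the 16 alternatives, and 15 of the 31 tested members kept the sign of their log2 fold change under all of them. Genes called numbered 95 with no filter on low counts and 1 with DESeq2 (0 as reported), and 0 to 25 with single libraries left out, where 25 came without inotodiol replicate 3; with no filter 904 genes had an unadjusted p under 0.05. With library totals the 1 member at an unadjusted p under 0.05 was Acadm (-0.43) and not Bdh1. Members at that level numbered 2 with no filter, adding Ucp3, and 0 to 3 with single libraries left out; members without overlap numbered 3 to 9 there, as fewer samples part more easily.

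The median over the members was -0.060 with library totals, where the median of all genes moved from -0.00073 to -0.12, and -0.017 with library totals without Rn45s; without single libraries it lay between -0.011 and 0.096. The mean level in inotodiol 1 was -0.22 with library totals. With library totals, and with totals without Rn45s, the values were -0.048 and -0.0063 for Cd36, -0.060 and -0.017 for Mlycd, -0.083 and -0.036 for Acads, -0.10 and -0.059 for Etfa, -0.057 and -0.014 for Hadha, -0.047 and -0.00035 for Hadhb, -0.056 and -0.010 for Echs1, and -0.036 for Etfb with library totals. Ppargc1a was 0.019 with limma-voom and 0.013 with the replicate block. The causes were not tested.

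With single libraries left out, signs changed for Cd36 (-0.056 to 0.16), Fabp3 (-0.24 to 0.020), Slc27a1 (-0.74 to 0.019), Acsl1 (-0.19 to 0.055), Cpt1b (-0.087 to 0.0030), Mlycd (-0.068 to 0.19), Acads (-0.033 to 0.16), Acadvl (-0.14 to 0.075), Etfa (-0.11 to 0.15), Hadha (-0.026 to 0.13), Echs1 (-0.017 to 0.22), Eci1 (-0.15 to 0.023), Eci2 (-0.28 to 0.035), Acot2 (-0.38 to 0.15), Ppard (-0.26 to 0.010) and Ppargc1a (-0.34 to 0.46). Pdk4 passed the threshold with no filter (-0.96, adjusted p 9.2e-05; 0.054 to 1.00 over its other alternatives).

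Replicate numbers are shared by the groups. Deviations of same-numbered libraries correlated at -0.081, 0.11 and 0.022, and those of unlike numbers at -0.13 to 0.097. With so few libraries these values cannot decide whether the numbers pair the samples. With the number as a block, 0 genes were called and 2 members had an unadjusted p under 0.05, Bdh1 and Ucp3. Depth limits Ehhadh, with 0 to 6 counts per library, and widens the interval of Cpt1a.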
